A study of Mus musculus with 16 samples.

Results

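These data describe where, on mouse chromosome 2, 2 promoters on other chromosomes had listed contacts. The contacts are trans contacts, between a promoter and another chromosome, and the members were chosen by position: every site that the authors listed on chromosome 2 (build mm9) in any of 16 libraries. There were 17401 such listings of 327988 on all chromosomes, at 9148 distinct sites. Chromosome 2 was selected with one result in view, a lower share of its sites in Rb1L/L cells at the Cdca3 viewpoint, so that comparison is described here and nothing is read from a test of it.

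The assay was 4C-seq, which crosslinks chromatin, cuts and ligates it, and then sequences what became joined to 1 chosen place, the viewpoint. One viewpoint was the bidirectional promoter shared by Pole, a DNA polymerase catalytic subunit, and Pxmp2, a peroxisomal membrane protein, on chromosome 5. The other was the bidirectional promoter of Cdca3, a cell division gene, and Usp5, a deubiquitinase, on chromosome 6. The cells were mouse embryonic fibroblasts (MEFs), primary cultures made from E13.5 embryos and proliferating at passage 4 when taken. The Rb1+/+ cultures carried the normal Rb1 gene and the Rb1L/L cultures were homozygous for the Rb1L allele; no other allele or treatment is named. The L allele is known to change the surface with which pRb binds LXCXE-motif partners. Each viewpoint had 4 libraries per genotype, numbered as 4 MEF pairs, and the 8 cultures were the same at both viewpoints. The labels do not say what the members of a pair share or how many embryos a culture came from. The tests here therefore set a difference against the variation between these cultures only.

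As background, chromosomes occupy territories in the nucleus, and a locus touches loci on other chromosomes mainly when its chromosome segment lies at a territory's edge. Trans contacts in 4C are known to gather in blocks of chromatin of the same kind as the viewpoint, with active, gene-rich stretches contacting one another and inactive stretches staying apart. pRb restrains entry into the cell cycle, and condensin II, named in the title of the series, compacts chromosomes; the study asked whether promoter contacts differ when pRb carries the L change. Genes could not be placed on mm9 here, so blocks are named by position and no gene is assigned to them.

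The libraries differed in yield. A Pole library listed 2616 to 8899 trans sites and a Cdca3 library 10537 to 30028, and the lists hold no read counts, so depth is unknown. Both Pole libraries of replicate 1 were the smallest of that viewpoint, and at Cdca3 the smallest was Rb1L/L replicate 1. That last library also stood apart on chromosome 2, where its significant regions covered 35.6 Mb against 64.7 to 69.9 Mb in the other 3 Rb1L/L libraries. The genotype differences at Cdca3 are given with and without it, for the chromosome share, the covered length and each block.

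Listed sites on chromosome 2 lay in a few blocks separated by long empty stretches. Of 362 windows of 500 kb, 162 held a site in at least 1 library and 200 held none in any library. A window was called contacted when it held a site in at least 6 of the 8 libraries made from one viewpoint, and a block was a run of at least 2 contacted windows. At Cdca3 there were 78 contacted windows, all of them in 9 blocks that together spanned 39 Mb, or 21.5% of the windows. These windows held 88.2% of the Cdca3 listings on the chromosome. In 42 windows all 8 Cdca3 libraries listed a site.

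**Figure D1:**
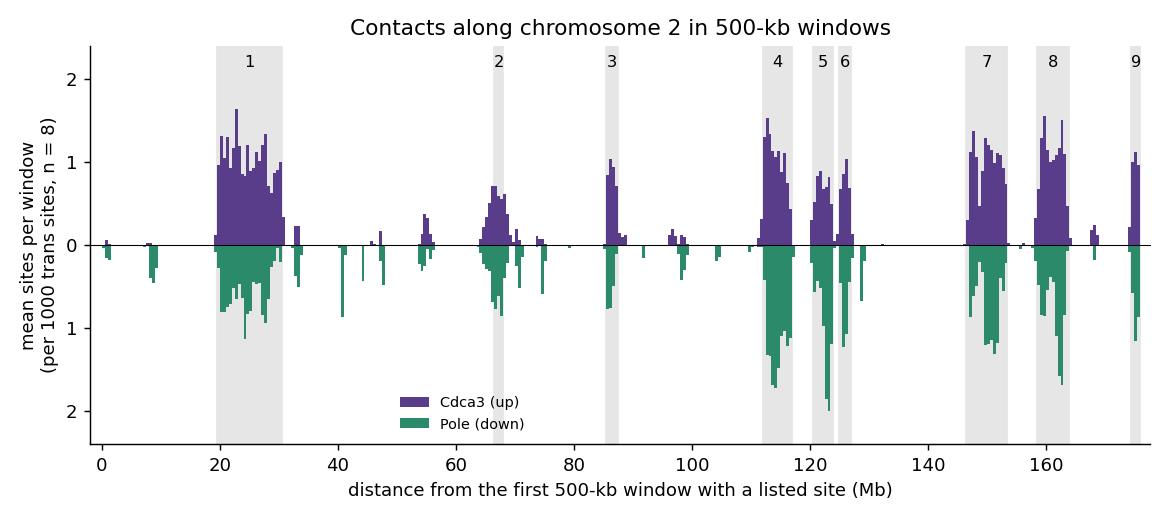
Mean number of listed sites in each 500-kb window of chromosome 2, per 1000 trans sites of the library, for the 8 Cdca3 libraries (upward bars) and the 8 Pole libraries (downward bars), against distance in Mb from the first window with a listed site. Grey bands with numbers are the 9 Cdca3 blocks; both viewpoints had most of their sites in these bands, which take up 21.5% of the windows.

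The largest block ran from 24.5 to 35.5 Mb (block 1). It held 2.31% ± 0.316 (SD, n = 8) of the Cdca3 trans sites, lowest 1.98% and highest 2.80%, and 2070 distinct sites. Block 7, from 151.5 to 158.5 Mb, held 1.37% ± 0.1397, and block 8, from 163.5 to 169 Mb, held 1.20% ± 0.248. Block 4, from 117 to 122 Mb, held 1.07% ± 0.188. Block 5, from 125.5 to 129 Mb, held 0.494% ± 0.318 and was close to empty in both replicate 1 libraries. The other 4 blocks were small: block 2 (71.5 to 73 Mb) held 0.186%, block 3 (90.5 to 92.5 Mb) 0.353%, block 6 (130 to 132 Mb) 0.326% and block 9 (179.5 to 181 Mb) 0.310%. Per Mb the blocks differed less than in total. The densest, block 8, held 0.219% of the trans sites per Mb and the sparsest, block 2, held 0.124%.

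The authors also called significant regions in each library separately. All 17401 listings lay inside such a region of their own library. A match of blocks and regions therefore follows from the lists and is no separate support. All 8 Cdca3 libraries had a region over each of blocks 1, 4, 7, 8 and 9, and 7 of 8 had one over each of the other 4. When overlapping regions were merged over the libraries, block 1 lay in chr2:23664651-36769520 and block 7 in chr2:150644519-159359438. At Pole the corresponding merged regions were chr2:23632488-36168253, called in 7 of 8 libraries, and chr2:151084267-159241920, called in all 8. The outer borders of both merged regions thus differed between the viewpoints by less than 1 Mb. Other borders differed by more: the merged region over block 4 began at 115404091 at Cdca3 and at 114142514 at Pole. Single libraries varied too. At Pole, regions over block 1 began at 23632488 to 26911158 and ended at 32354393 to 36168253, depending on the library. Over the whole chromosome, regions of any Cdca3 library covered 89.4 Mb and those shared by all 8 covered 30.6 Mb. At Pole the same figures were 97.2 Mb and 0.796 Mb, so that the Pole libraries had far less called chromatin in common.

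The 3 longest stretches without a listed site in any of the 16 libraries were chr2:137430878-151486452 (14.1 Mb), chr2:14178028-24348618 (10.2 Mb) and chr2:61312884-68883845 (7.57 Mb). The first ends at the edge of block 7 and the second at the edge of block 1. Libraries of both viewpoints and genotypes were empty there.

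At each viewpoint most individual sites were listed in 1 library only. Blocks were defined by their recurrence across libraries and sites were not, so the recurrence of sites and blocks cannot be compared. At Cdca3, 54.7% of 7985 distinct sites were listed in 1 library only, and 4 sites were listed in all 8. At Pole, 83.7% of 3238 distinct sites were listed in 1 library only, and the most recurrent site was in 5. The site at chr2:26466008-26466013, in block 1, was listed in all 8 Cdca3 libraries and in no Pole library. Another site of block 1, chr2:25194963-25194968, was listed in 7 Cdca3 and 3 Pole libraries. Any pair of Cdca3 libraries of the same genotype shared on average 21.2% of the smaller list, against 20.8% for pairs of different genotype. For Pole these means were 7.69% and 6.62%.

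By the rule of 6 of 8 libraries, every window contacted at Pole was also contacted at Cdca3. Some Pole regions called in 1 library, such as 44.8 to 46.7 Mb and 83.4 to 85.0 Mb, had no Cdca3 region over them. Pole had 16 contacted windows, all of which were among the 78 of Cdca3, so the overlap was 100% of the Pole windows and 20.5% of the Cdca3 windows. With at least 4 of 8 libraries it was 100% and 56.4%. Pole libraries listed fewer trans sites, on average 6122.25 against 19942.5, and the part of yield in this overlap was not tested. Among the Pole windows, 13 formed 5 blocks covering 6.5 Mb and 3 stood alone. The blocks ran from 25 to 26, 118 to 120, 127.5 to 128.5, 130.5 to 131.5 and 166.5 to 168 Mb. They lay inside Cdca3 blocks 1, 4, 5, 6 and 8. Of the Pole listings on the chromosome, 82.9% fell into windows contacted at Cdca3. A site in at least 1 library was present in 141 windows at each viewpoint and in 120 of them at both. The 21 windows with sites at Pole only were each listed by at most 2 Pole libraries.

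The shares of the 5 Pole blocks at Pole ran from 0.162% to 0.623%. The block from 118 to 120 Mb held 0.623% ± 0.323 (SD, n = 8) of the Pole trans sites, and the block from 166.5 to 168 Mb held 0.436% ± 0.235. The block from 127.5 to 128.5 Mb held 0.385% ± 0.520, the block from 130.5 to 131.5 Mb 0.230% ± 0.151, and the block from 25 to 26 Mb 0.162% ± 0.113. In each of the 5 at least 1 Pole library listed no site. The spread exceeded the mean between 127.5 and 128.5 Mb, where Rb1L/L replicate 1 alone had 1.61%.

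Across the 162 windows with any site, the mean shares at the 2 viewpoints had a Pearson correlation of 0.703 and a Spearman correlation of 0.702. Over the 78 windows contacted at Cdca3 these fell to 0.292 and 0.319. Neighbouring windows share regions and all libraries come from the same 8 cultures, so these values are descriptions. Of the distinct Pole sites 64.1% were also listed at Cdca3, and of the Cdca3 sites 26.0% were also listed at Pole. Libraries of the same culture at the 2 viewpoints shared on average 16.9% ± 4.59 of the smaller list (SD over 8 library pairs), and libraries of different cultures 15.5% ± 5.06 (56 library pairs). That difference was smaller than either spread.

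**Figure D2:**
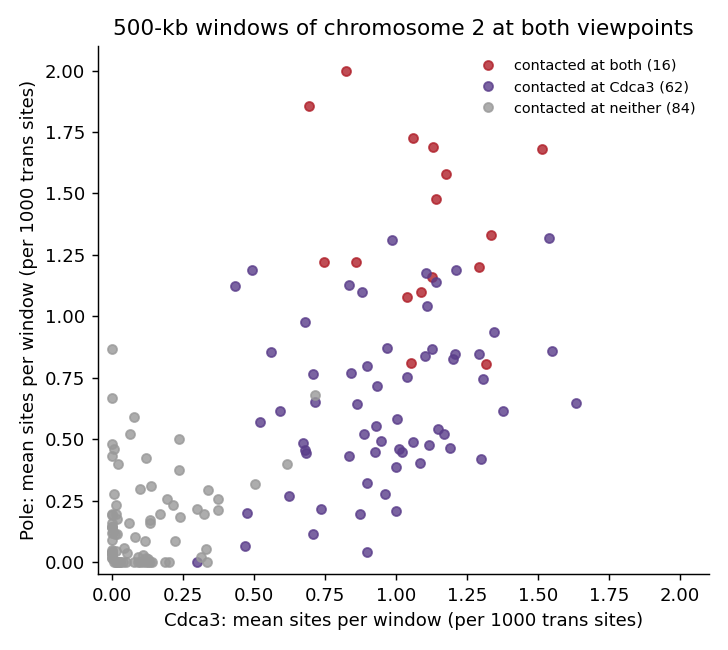
Each point is 1 of the 162 windows of chromosome 2 with a listed site, at its mean number of sites per 1000 trans sites over 8 Cdca3 libraries (horizontal) and 8 Pole libraries (vertical). The 16 windows contacted at both viewpoints (red) lie toward the upper right, and no window was contacted at Pole alone.

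Chromosome 2 held a larger share of the sites at Cdca3 than at Pole in most cultures, and whether the difference passed a test depended on how the share was taken. It held 8.54% ± 0.705 (SD, n = 8) of the Cdca3 trans sites and 7.50% ± 1.60 of the Pole trans sites. The share was higher at Cdca3 in 6 of 8 cultures, by 1.03 percentage points on average (95% interval -0.302 to 2.43; exact two-sided sign-flip permutation test over the 8 cultures, p = 0.109, smallest possible 0.00781). As a share of all sites, cis ones included, it was 2.55 points, higher in 8 of 8 cultures (exact sign-flip permutation p = 0.00781). That measure also carries the unlike cis part of the viewpoints. Trans sites averaged 19942.5 of 27987.9 listed sites at Cdca3 and 6122.25 of 13010.6 at Pole. Among sites with a deposited value under 0.01 the share of trans sites differed by 2.79 points, higher in 6 of 8 (exact sign-flip permutation p = 0.0625). Without the culture Rb1L/L replicate 3 the share of trans sites differed by 1.33 points with an exact sign-flip p of 0.0469, and without both cultures of pair 1 by 0.339 points. By mean share, chromosome 2 had rank 1 among 19 trans chromosomes at Cdca3 and rank 3 at Pole. Per Mb between a chromosome's outermost listed sites it had rank 5 at Cdca3 and rank 11 at Pole.

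The Cdca3 sites were packed more densely and more of them had a deposited value under 0.01. Significant regions on chromosome 2 covered 59.0 Mb ± 11.8 at Cdca3 and 40.7 Mb ± 15.4 at Pole, with more at Cdca3 in 8 of 8 cultures (exact sign-flip permutation p = 0.00781). Within them Cdca3 listed 28.4 ± 5.39 sites per Mb and Pole 11.2 ± 2.82, again higher in 8 of 8 cultures (p = 0.00781, same exact test). Neither gap was particular to chromosome 2. Over all trans chromosomes, regions covered 840 Mb at Cdca3 and 536 Mb at Pole, with 23.3 and 11.2 sites per Mb. Both were higher at Cdca3 in 8 of 8 cultures. The chromosome 2 percentage of covered trans length differed by -0.559 points (Cdca3 minus Pole). It was higher at Cdca3 in 2 of 8 cultures (exact sign-flip permutation p = 0.0625). Of the chromosome 2 sites 84.0% ± 9.23 had a deposited value under 0.01 at Cdca3 and 46.1% ± 20.04 at Pole. All trans sites moved the same way, to 76.5% from 51.2%. The Cdca3 library also listed more trans sites in 8 of 8 cultures, and the part of yield in these differences was not tested.

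Window by window, which viewpoint was higher depended on how empty windows were treated. Of 120 chromosome 2 windows tested by limma, with 0.5 site added to every window, 2 passed an adjusted p of 0.05, both lower at Cdca3. In all windows outside chromosomes 5 and 6 the share called higher at Cdca3 was 0.572% and the share called lower was 2.99% of 1573. The first, from 52.5 to 53 Mb, had 23 sites in 2 Pole libraries, 6 in Rb1+/+ replicate 1 and 17 in Rb1+/+ replicate 4, and none in the 8 Cdca3 libraries. The second, from 45.5 to 46 Mb, had 22 sites in the Pole library Rb1+/+ replicate 1 alone and none at Cdca3. Neither call rests on more than 2 libraries. Both windows reached the minimum of 16 sites through Pole libraries alone, so the calls support nothing. Leaving out any 1 of the 8 cultures left 0 calls on chromosome 2.

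When the added 0.5 site was scaled to each library's trans total, a choice made after the data were seen, those windows no longer passed. Then 2 of the 120 windows were higher at Cdca3 and none was lower, beside 4.01% higher and 0% lower of all 1573 windows. From 34.5 to 35 Mb, at the right edge of block 1, 7 Cdca3 libraries listed 146 sites and 1 Pole library listed 1. From 92 to 92.5 Mb, in block 3, 7 Cdca3 libraries listed 114 sites and 1 Pole library listed 8. These windows too reached the site minimum through the viewpoint where they were high, and their calls support nothing. The scaling moved the median log2 difference of all windows from 0.11 to 1.07. On chromosome 2 the median moved from 0.55 to 1.34.

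At Cdca3 the chromosome 2 share was lower in Rb1L/L cells in all 4 pairs, the result for which the chromosome was chosen. The Rb1+/+ libraries had 9.74%, 8.83%, 9.12% and 8.56% of their trans sites on chromosome 2 in replicates 1 to 4, and the Rb1L/L libraries had 7.46%, 7.996%, 8.18% and 8.42%. The groups did not overlap, with means of 9.06% ± 0.508 and 8.01% ± 0.408 (SD, n = 4) and a difference of -1.05 percentage points. Pair 1 had the widest gap, -2.29 points, and pair 4 the narrowest, -0.139 points. Without Rb1L/L replicate 1 the difference was -0.866 points, and without pair 1 it was -0.639 points. As a share of all sites, cis ones included, it was -0.488 points and the groups overlapped. Among sites with a deposited value under 0.01 it was -0.896 points, with 3 of 4 pairs lower and the groups overlapping.

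**Figure D3:**
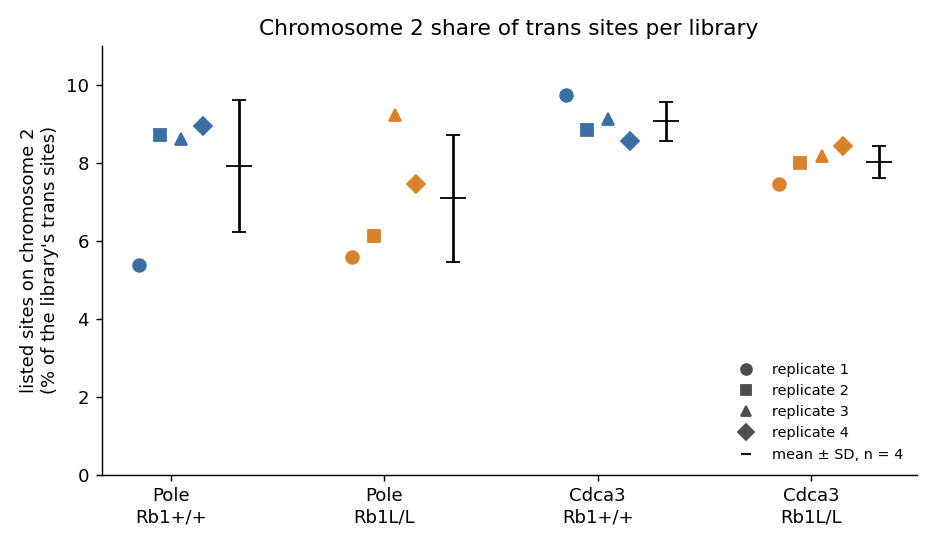
Share of each library's trans sites that lie on chromosome 2 (percent, axis from 0), by viewpoint and genotype, with marker shape for the replicate and a bar for the mean ± SD of 4 libraries. The Cdca3 groups do not overlap, at 8.56% to 9.74% and 7.46% to 8.42%, and the Pole groups do.

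Shares of a total move against each other, and other chromosomes also had groups without overlap at Cdca3. Chromosome 11 was also lower in Rb1L/L without overlap, by -1.60 points, and the X chromosome was higher without overlap, by 1.47 points. With X left out of the total, the chromosome 2 difference was -0.955 points. In number of sites the order of the means was the other way: the 4 Rb1+/+ libraries listed 1345 to 1838 on chromosome 2 (mean 1598) and the 4 Rb1L/L libraries 786 to 2401 (mean 1790). Significant regions covered 59.2 Mb ± 8.78 of chromosome 2 in Rb1+/+ and 58.9 Mb ± 15.7 in Rb1L/L, a difference of -0.241 Mb. Without Rb1L/L replicate 1 that genotype's mean was 66.7 Mb ± 2.78, and the difference was 7.53 Mb the other way, with overlapping groups.

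The lower share at Cdca3 lay mainly inside the blocks, which hold most of the sites. They were defined from these same libraries and held on average 90.2% of the chromosome 2 sites in Rb1+/+ and 88.3% in Rb1L/L. A change of the total therefore had to lie mostly inside them. Sites in the 9 blocks made up 8.77%, 8.71%, 7.84% and 7.38% of the trans sites in Rb1+/+ replicates 1 to 4, and 7.26%, 6.90%, 6.86% and 7.22% in Rb1L/L. The block total therefore differed by -1.12 points, and its groups did not overlap. Outside the blocks the means were 0.887% ± 0.527 in Rb1+/+ and 0.955% ± 0.512 in Rb1L/L, a difference of 0.0682 points the other way. The groups overlapped and the pairs ran from -0.772 to 0.976 points. Rb1+/+ replicate 2 was low there, at 0.12% against 0.971% to 1.28% in the other Rb1+/+ libraries. The inside and outside values are parts of the contrast that chose the chromosome and have no test.

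Block 4, from 117 to 122 Mb, carried 24.4% of the chromosome's difference with all libraries. That was the largest part, but it remained the largest in only 4 of 12 sets with 1 library or pair left out, and blocks 1, 3 or 5 had a larger one in the other 8. Its share was 1.398%, 1.32%, 1.01% and 1.05% in Rb1+/+ replicates 1 to 4, and 0.930%, 0.996%, 0.908% and 0.920% in Rb1L/L. It was lower in 4 of 4 pairs and was the only one of the 9 blocks whose groups did not overlap, with 1.01% as the lowest Rb1+/+ value and 0.996% as the highest Rb1L/L value. The difference was -0.257 points, and -0.254 without Rb1L/L replicate 1. Without that library the groups were apart in block 8 too. Blocks defined in the same way on all trans chromosomes numbered 166 at Cdca3, and 5.42% of them lay lower in Rb1L/L without overlap, or 10.8% without Rb1L/L replicate 1. These shares stand beside 1 of 9 and 2 of 9 on chromosome 2, and nothing is read from them, since the contrast chose the chromosome.

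Blocks 3, 1 and 6 carried 23.3%, 21.3% and 15.9% of the difference. Block 3, from 90.5 to 92.5 Mb, had 0.565%, 0.604%, 0.319% and 0.415% in Rb1+/+ and 0%, 0.143%, 0.413% and 0.368% in Rb1L/L. It was lower in 3 of 4 pairs, by -0.245 points on average and by -0.168 without Rb1L/L replicate 1. Block 1 had 2.80%, 2.63%, 2.26% and 1.98% in Rb1+/+ and 2.56%, 2.13%, 1.98% and 2.11% in Rb1L/L. Its difference was -0.223 points with 3 of 4 pairs lower, and -0.346 points without Rb1L/L replicate 1. Without Rb1+/+ replicate 1 it was -0.0951 points. Block 6, from 130 to 132 Mb, had 0.442%, 0.456%, 0.308% and 0.433% in Rb1+/+ and 0%, 0.313%, 0.309% and 0.348% in Rb1L/L. The empty library was again Rb1L/L replicate 1, and without it the block 6 difference went from -0.167 to -0.0865 points.

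Block 5, from 125.5 to 129 Mb, had 0.0145%, 0.780%, 0.661% and 0.750% in Rb1+/+ and 0%, 0.433%, 0.635% and 0.676% in Rb1L/L. All 4 pairs were lower, yet the difference of -0.115 points turned to 0.0301 points without Rb1L/L replicate 1. Without Rb1+/+ replicate 1 it was -0.294 points, and without pair 1 it was -0.149 points. Blocks 7 and 8 carried 7.01% and 7.30% of the chromosome's difference, -0.0737 and -0.0767 points. Without Rb1L/L replicate 1 these were -0.151 and -0.245 points, and in block 8 the other 3 Rb1L/L libraries, at 0.976% to 1.02%, lay below all 4 Rb1+/+ libraries, at 1.04% to 1.41%. Both differences turned positive among sites with a deposited value under 0.01, to 0.0838 and 0.0209 points. Blocks 2 and 9 were the only ones with a higher Rb1L/L mean, by 0.0216 and 0.0173 points. Both of these became lower when 1 library was left out, block 2 without Rb1+/+ replicate 2 (-0.0367 points) and block 9 without Rb1L/L replicate 1 (-0.0442 points).

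**Figure D4:**
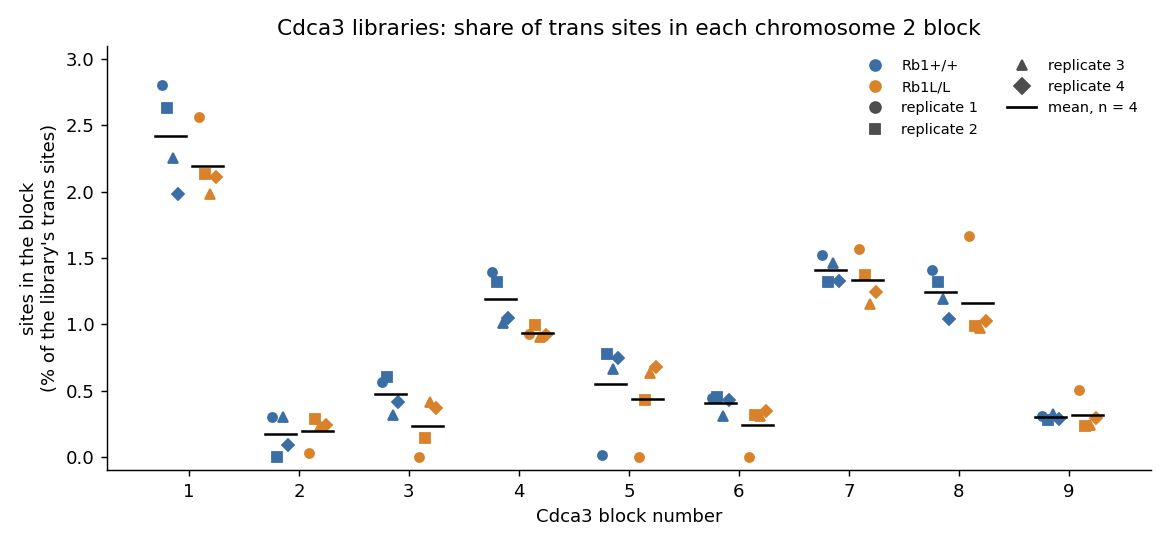
Share of each Cdca3 library's trans sites (percent) in each of the 9 chromosome 2 blocks, Rb1+/+ in blue and Rb1L/L in orange, with marker shape for the replicate and a line for the mean of 4. With all libraries the groups are apart in block 4 only, and Rb1L/L replicate 1 is at 0 in blocks 3, 5 and 6.

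In the window fit of this contrast, of 1732 trans windows 0% were called by limma at an adjusted p of 0.05, and of the 122 on chromosome 2 none was. Without adjustment 85 of all windows and 7 of those on chromosome 2 were under 0.05, and the smallest adjusted p was 0.749. On chromosome 2 78 windows (63.9%) had a lower Rb1L/L mean, beside 50.5% of all windows, with a median log2 difference of -0.17 beside -0.01. Nothing is read from this, since the contrast chose the chromosome.

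At Pole the genotypes did not differ in their chromosome 2 share beyond the replicate spread. The Rb1+/+ libraries had 5.38%, 8.72%, 8.61% and 8.94% in replicates 1 to 4, and the Rb1L/L libraries 5.58%, 6.12%, 9.24% and 7.45%. Replicate 1 was low in both genotypes and the groups overlapped. The means were 7.91% ± 1.69 and 7.10% ± 1.63 (SD, n = 4), with 2 of 4 pairs lower and a difference of -0.813 points (95% interval -3.35 to 3.85; exact two-sided permutation test over 70 assignments, p = 0.514, adjusted over 19 chromosomes 0.984). The smallest p this design allows is 0.0286. The interval includes the difference of -1.05 points seen at Cdca3, and whether the genotype difference itself differs between the viewpoints was not tested.

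The relation of the share to the library's yield did not pass after adjustment at either viewpoint. At Pole, over 8 libraries, the chromosome 2 share and the number of trans sites had a Pearson correlation of 0.631 (permutation p = 0.0989, adjusted over 2 viewpoints 0.198) and a Spearman correlation of 0.762 (permutation p = 0.0368, adjusted 0.0735). Without both replicate 1 libraries, which were the farthest from the median yield, Pearson's value was 0.0321. At Cdca3 the correlations were -0.226 and -0.286 (permutation p = 0.594 and 0.501), and Pearson's value was 0.240 without the 2 farthest libraries.

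At Pole the block values were more spread, and none of the 9 genotype differences passed. Block 4, with the largest difference at Cdca3 when all libraries were kept, was 1.16% ± 0.869 in Pole Rb1+/+ and 1.33% ± 0.427 in Pole Rb1L/L. Block 1 was 1.60% ± 0.884 and 0.977% ± 0.780, and block 3 was 0.1002% ± 0.2005 and 0.325% ± 0.248. Block 5 went the opposite way from Cdca3 in every pair: Pole Rb1+/+ libraries had 0%, 0.0491%, 0.590% and 0.538%, and Pole Rb1L/L libraries had 2.52%, 0.456%, 1.01% and 0.866%. The means were 0.294% and 1.21%, but the groups overlapped and the exact permutation test gave p = 0.0857, or 0.471 adjusted over the 11 values compared at Pole (the 9 blocks, their total and the sites outside them). The difference between the viewpoints in block 5 was not tested.

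**Figure D5:**
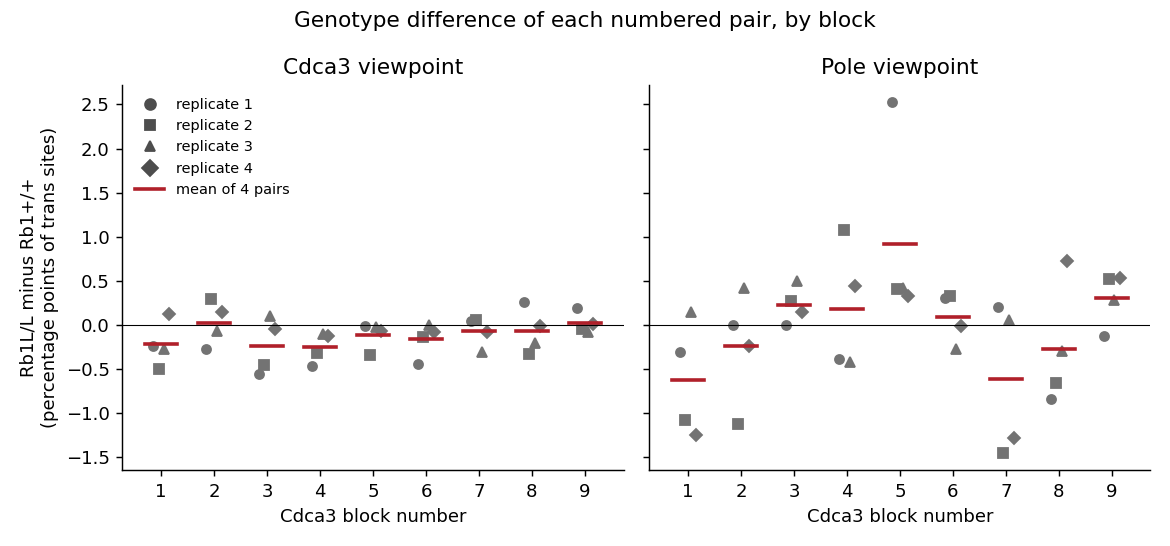
Rb1L/L minus Rb1+/+ share of trans sites (percentage points) in each of the 9 blocks for each of the 4 numbered pairs, at Cdca3 (left) and Pole (right) on the same axis, with a red line for the mean of the pairs. The Pole pairs spread more widely, and in block 5 all 4 Pole pairs are above 0 while all 4 Cdca3 pairs are below.

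Outside the 9 blocks the Pole genotypes were apart. Those sites made up 1.89%, 1.82%, 1.64% and 1.58% of the trans sites in Rb1+/+ replicates 1 to 4, and 0.726%, 0.950%, 1.46% and 0.727% in Rb1L/L. The groups did not overlap, all 4 pairs were lower, and the difference of -0.766 points reached the smallest p that the exact permutation test allows, 0.0286, but not after adjustment over the 11 values (0.314). Inside the blocks the Pole means were 6.18% and 6.13%. Of the chromosome's Pole sites, 23.2% ± 8.04 lay outside the blocks in Rb1+/+ and 13.53% ± 2.81 in Rb1L/L. At Cdca3 the outside share was 0.0682 points higher in Rb1L/L with overlapping groups, as given above.

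In the window test at Pole, 0 of 111 chromosome 2 windows were called, and 0% of all 1346 trans windows (limma, adjusted p of 0.05). Without adjustment 5 on chromosome 2 and 31 in all were under 0.05, and the smallest adjusted p was 0.896. The window with the smallest p, from 127 to 127.5 Mb in block 5, had no site in any Rb1+/+ library and 11, 8, 12 and 8 sites in Rb1L/L replicates 1 to 4. From 28.5 to 29 Mb, in block 1, it was the reverse: Rb1+/+ replicates 2 to 4 had 9, 11 and 12 sites, and no Rb1L/L library had any. From 179.5 to 180 Mb, in block 9, Rb1L/L replicates 2 to 4 had 8, 20 and 9 sites and no Rb1+/+ library had any. Each of these windows reached the minimum of 8 sites only through the genotype that listed it, and all were picked by their p in this contrast. Nothing is read from their patterns. At Cdca3 both genotypes listed sites in these windows, 116, 138 and 139 over the 8 libraries.

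Covered length at Pole gave no called difference either. Significant regions covered 24.7, 29.7, 57.3 and 55.6 Mb of chromosome 2 in Rb1+/+ replicates 1 to 4, and 17.4, 38.3, 53.8 and 49.0 Mb in Rb1L/L. The means of 41.8 ± 17.0 and 39.6 ± 16.2 Mb differed by -2.20 Mb (exact permutation test, p = 0.857), in 12 and 11.5 regions per library. As a percentage of the library's covered trans length, chromosome 2 was lower in Rb1L/L in 4 of 4 pairs, with means of 7.90% ± 0.317 and 7.22% ± 0.491. That difference of -0.679 points had an exact permutation p of 0.0571.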

How the data were processed

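The 16 libraries (4C-seq, 2 viewpoints, 2 genotypes, 4 numbered MEF pairs) each had a list of restriction sites, mostly 6-bp intervals, with a p-value or q-value deposited by the authors without a header (which of these is not stated; all were under 0.05), and a list of significant regions, as deposited coordinates. Coordinates are on mm9, as the submitters' processing notes name it. Aligner and caller: not given in the sources used here. No read counts are in the lists used, so a deeper library can list more sites.

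Sites whose starts chained within 12 bp were taken as 1 site. Shares are percentages of a library's trans sites, those off chromosome 5 (Pole) or 6 (Cdca3), and windows are 500 kb from position 1. Sites of 1 region were called together, so no binomial interval is given. Single values were compared by exact permutation tests, with intervals from inverting them, in Python 3.11.15 with scipy 1.17.1. Windows were fitted in R 4.3.3 by limma 3.58.1 (trended eBayes, Benjamini-Hochberg over all windows) on log2 of (sites + 0.5) per 1000 trans sites, with at least 8 sites over 8 libraries, or 16 over 16 with culture as a block. The fit was also run on simulated counts drawn separately for each window. Real sites come in regions that span neighbouring windows, so the simulation does not check the calls made here. By construction an added 0.5 gives an empty window a lower value in a larger library, so a scaled form was added. Blocks and windows named were the 5 with the highest share at each viewpoint, the 5 largest falls and 3 largest rises at Cdca3 (2 rose), windows called between viewpoints, the 3 longest gaps and the 3 smallest p at Pole. The comparisons inside and outside the Cdca3 blocks at Pole were added after values were seen. The members and lists were chosen with earlier results of these data known. No mm9 gene annotation was used.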

Additional observations from a re-analysis of the deposited data

Results flagged for a closer look

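Among 48 groups of 4 libraries, the highest or lowest value lay far from the other 3 in 8 by Dixon's rule. Independent normal values meet this rule in about 1 group in 20. The groups here share libraries, and a group with only 1 library above 0 always meets the rule. No excess is therefore read from the count. At Pole, Rb1+/+ replicate 1 had 5.38% of its trans sites on chromosome 2, against 8.61% to 8.94% in the others. At Cdca3, Rb1L/L replicate 1 lay apart in 3 groups: its regions covered 35.6 Mb against 64.7 to 69.9 Mb, block 6 was at 0% against 0.309% to 0.348%, and block 8 was at 1.67% against 0.976% to 1.02%. The Rb1+/+ library of the same number had 0.0145% in block 5 at Cdca3, against 0.661% to 0.780%. Rb1+/+ replicate 3 had 0.308% in block 6 at Cdca3, against 0.433% to 0.456%. At Pole, Rb1L/L replicate 3 had 0.416% in block 2 and Rb1+/+ replicate 4 had 0.401% in block 3, where the other 3 libraries of their groups listed no site.

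Block 5, from 125.5 to 129 Mb, had opposite genotype differences at the viewpoints in every pair: -0.115 percentage points at Cdca3, lower in 4 of 4 pairs, and 0.920 points at Pole, higher in 4 of 4 pairs. The difference between these was not tested. The Pole mean leans on Rb1L/L replicate 1, the library with the fewest trans sites. It had 2.52% in this block, against 0.456% to 1.01% in the other Rb1L/L libraries at Pole. At Cdca3 both replicate 1 libraries were close to empty in this block, with 2 sites in Rb1+/+ and 0 in Rb1L/L. There the sign turned (0.0301 points) without Rb1L/L replicate 1. The Cdca3 difference stayed negative without Rb1+/+ replicate 1 (-0.294 points) and without both (-0.149 points).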

How the results depend on the processing

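The lists hold no read counts, so the effect of depth on them cannot be told apart from yield, and 4 libraries a group allow no exact p below 0.0286. As a share of all sites the chromosome 2 difference was -0.488 points between genotypes at Cdca3, and 2.55 points between viewpoints (exact sign-flip p = 0.00781). The value between viewpoints also carries their unlike part of cis sites. Leaving out 1 culture or pair, the viewpoint difference in the share of trans sites (1.03 points) ran from 0.339 to 1.47 points. Leaving out 1 library or pair, the covered length at Pole differed by -7.90 to 5.21 Mb, turning sign without Rb1+/+ replicate 3 (2.95), Rb1+/+ replicate 4 (2.38) or Rb1L/L replicate 1 (5.21). At Cdca3 it ran from -5.66 to 7.53 Mb and turned sign in 5 of 12 such sets, among them without Rb1+/+ replicate 3 (1.964), Rb1+/+ replicate 4 (2.504), Rb1L/L replicate 1 (7.53) and pair 1 (5.79).

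Pole blocks numbered 11 with at least 4 libraries, 0 with all 8, and 9 by significant regions. Windows contacted at both viewpoints then numbered 53, 0 and 61. Chromosome 2 windows called between viewpoints numbered 6 with 1 site added, 0 with 0.1 added, 48 with a minimum of 1 site (43 of them lower at Cdca3), 0 with a minimum of 64, 0 in 250-kb windows, 1 in 1-Mb windows (higher), 2 with the scaled addition (both higher), 1 with no replicate block, and 0 without any 1 culture or pair. The cause was not tested, beyond the built-in effect of the added site.

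Leaving out 1 library or pair, the Cdca3 difference ran from -0.294 to 0.0301 points in block 5, from -0.0442 to 0.05003 in block 9 from -0.0666 to 0.121 in block 2, from -0.151 to 0.00472 in block 7 and from -0.245 to 0.0084 in block 8. Among sites under 0.01 blocks 7 and 8 differed by 0.0838 and 0.0209 points. With the MEF number as a replicate block, the Pole chromosome 2 share differed by -0.813 points (exact sign-flip p = 0.500, where 0.125 is the smallest possible) and no window was called in either genotype fit. Correlations of deviations from the genotype mean, for libraries of the same number, ran from -0.0467 to 0.166 at Pole. At Cdca3 they ran from 0.0394 to 0.154. Libraries of different number had -0.137 to 0.118 at Pole and -0.144 to 0.109 at Cdca3. As the same-number values were not all over 0.1, the number was a block only in this alternative. Counts of pairs follow the numbering in the labels. The Pole difference outside the blocks kept its sign throughout, from -0.961 to -0.297 points, and was past 0.05 in 4 of 15 alternatives, each leaving out 1 Rb1L/L library. Of 294 alternatives over 21 results, 234 kept direction and call, or, for values with no test, stayed within 1 SD (counts within 1.5 times). A result with no call was counted as kept while it stayed uncalled. In the exact genotype tests at Pole, leaving out a pair or blocking by number allowed no p under 0.05, also for the sites outside the blocks. The count of 234 is therefore no measure of support.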
